A study of Mus musculus with 9 samples.

Results

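The 40 genes described here are cell cycle genes that were listed by name, 27 that act in mitosis and 13 that act in DNA replication and S phase. They were listed by function, with earlier results of these data known. All 40 were found in both deposited UMI tables, among 19858 genes in either table. A UMI is a unique molecular identifier, which marks a counted RNA molecule. The mitosis genes are the proliferation antigen Mki67, the topoisomerase Top2a, the cyclins Ccna2, Ccnb1 and Ccnb2 with their kinase Cdk1, and the checkpoint kinases Bub1 and Bub1b. They also comprise the kinases Aurka, Aurkb and Melk, the kinetochore genes Cenpe, Cenpf and Knl1, and the kinesins Kif11, Kif15, Kif20b and Kif23. Tpx2, Aspm, Hmmr and Prc1 encode spindle proteins, Ect2, Anln and Diaph3 act in the cleavage of the cell, Smc4 is a condensin subunit and Foxm1 a transcription factor of mitosis genes. The replication genes are the helicase subunits Mcm3, Mcm4, Mcm5 and Mcm6, the sliding clamp Pcna, the DNA polymerase alpha subunits Pola1 and Pola2, and the ribonucleotide reductase subunits Rrm1 and Rrm2. Brca1 and Brca2 act in recombination repair, and Atad2 and Ezh2 in chromatin of dividing cells.

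Nuclei were taken from the kidneys of 9 male mice, 11 to 19 weeks old, sorted for GFP and sequenced from the 3' ends of nuclear polyadenylated RNA. The 4 controls were Six2TGC; Rosa26rtTA; pTRE-H2BeGFP mice on doxycycline food (625 mg/kg), in which a Six2-driven system puts GFP on nephron nuclei. Of these, control 1 had no surgery and controls 2 to 4 had a sham operation without the clamp. The 5 injured mice were Krt20T2A-CE; INTACTnuGFP/+ mice given tamoxifen (0.05 mg/g), with both renal pedicles clamped for 18 min (ischemia-reperfusion injury, IRI), of which 2 were taken at day 7 and 3 at day 28. Their GFP marks nuclei that descend from cells in which the Krt20 promoter was active, Krt20 being a keratin gene of injured tubule, so their sort holds traced nuclei and not the whole nephron. Reporter, sort and injury changed together in every comparison with control and cannot be told apart there, whereas day 28 and day 7 share them. The labels do not tie libraries to separate litters or surgery days, and p-values measure the spread between these 9 samples.

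The tables held 27738 nuclei, with medians of 668 (control 4) to 4174 UMIs per nucleus in a library. Any pair of libraries shared at most 26 cell barcodes. Cell types were rebuilt from marker genes, with cell cycle genes left out of the clustering, and are written as "-like". Proximal tubule-like (PT-like) nuclei numbered 10787 in controls, 6101 at day 7 and 5701 at day 28. Nearly all IRI nuclei of this class sat in clusters where markers of injured tubule such as Havcr1 and Vcam1 outscored those of uninjured tubule (injured state, 5658 nuclei at day 7 and 5088 at day 28), and nearly all control nuclei (10761) sat in the uninjured state. The barcodes of the controls and of day 28 mouse 1 belonged to the v2 set of the kit maker and those of the other 4 IRI libraries to the v3 set. Control 4 stood apart by its depth, and changes of Brca2 and Pola2, which were highest in it, are given with and without it.

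Cells copy their DNA in S phase and divide the copies in mitosis. E2F factors drive replication genes around the start of S phase, and mitosis genes follow later under the MuvB complexes with B-MYB and FOXM1, which act at the CHR element and at NF-Y boxes of their promoters. Tubule cells of the adult kidney seldom divide, and proximal tubule cells that survive ischemia are known to enter the cell cycle and to refill the tubule.

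Promoters of the listed genes were searched for these elements. The RefSeq promoter table (GRCm38.p6) held 22 of the 27 mitosis genes and 11 of the 13 replication genes, each with windows of 300 bases from 250 before to 50 after the start. Both strands were searched for the CHR element TTTGAA, the NF-Y box CCAAT and the E2F sites TTTCCCGC and TTTGGCGC; matches of different motifs may share bases. The CHR element was found for 17 mitosis genes (77.3%) and for 0 replication genes, against 20.2% of all 27025 genes in the table. An E2F site was found for 1 mitosis gene (4.55%) and for 6 replication genes (54.5%), against 1.80% of all genes. NF-Y boxes were found for 17 mitosis genes (77.3%) and 9 replication genes (81.8%), against 41.1% of all genes, so this motif did not separate the groups. The windows below are those of the 2 mitosis genes and the 2 replication genes with the lowest adjusted p at day 7 among genes in the table, in capitals where a searched motif was found on either strand. Anln (chr9:22389157-22389456, minus strand) held 2 CHR elements, and Diaph3 (chr14:87141175-87141474, minus strand) held 3 NF-Y boxes. Pola1 (chrX:93632106-93632405, minus strand) held 1 E2F site and 1 NF-Y box, and Rrm1 (chr7:102441445-102441744, plus strand) held 2 NF-Y boxes.
Anln: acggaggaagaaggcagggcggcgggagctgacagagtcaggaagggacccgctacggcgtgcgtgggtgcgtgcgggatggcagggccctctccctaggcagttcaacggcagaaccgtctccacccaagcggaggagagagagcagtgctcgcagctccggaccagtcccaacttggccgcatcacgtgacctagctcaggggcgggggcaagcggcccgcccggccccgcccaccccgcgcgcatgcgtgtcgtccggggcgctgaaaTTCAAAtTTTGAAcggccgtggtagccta
Diaph3: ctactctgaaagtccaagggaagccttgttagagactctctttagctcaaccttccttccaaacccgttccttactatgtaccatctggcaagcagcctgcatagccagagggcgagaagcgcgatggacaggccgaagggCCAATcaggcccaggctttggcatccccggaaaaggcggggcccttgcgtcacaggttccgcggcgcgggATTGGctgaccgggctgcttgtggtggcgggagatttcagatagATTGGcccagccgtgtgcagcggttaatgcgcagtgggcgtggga
Pola1: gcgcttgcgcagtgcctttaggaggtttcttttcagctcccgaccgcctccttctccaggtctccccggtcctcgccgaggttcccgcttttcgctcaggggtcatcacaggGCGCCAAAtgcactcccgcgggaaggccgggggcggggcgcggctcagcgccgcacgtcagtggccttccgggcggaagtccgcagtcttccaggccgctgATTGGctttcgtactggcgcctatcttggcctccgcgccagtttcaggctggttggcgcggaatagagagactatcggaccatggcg
Rrm1: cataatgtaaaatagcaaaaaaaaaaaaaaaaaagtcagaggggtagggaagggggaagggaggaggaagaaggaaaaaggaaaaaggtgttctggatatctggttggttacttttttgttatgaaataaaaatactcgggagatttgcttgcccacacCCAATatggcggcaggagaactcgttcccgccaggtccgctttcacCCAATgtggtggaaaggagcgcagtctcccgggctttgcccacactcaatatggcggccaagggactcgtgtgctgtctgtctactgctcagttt

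Most mitosis genes rose at day 7. In PT-like sums, the UMI counts of a gene summed over the PT-like nuclei of a library, 17 of the 27 mitosis genes were higher at day 7 than in control and 1, Ccna2, was lower, with 24 tested after the filter on low counts (edgeR quasi-likelihood test, Benjamini-Hochberg adjusted p under 0.05). Over all genes tested, 26.7% were called higher and 24.5% lower. The median log2 change of the 24 tested mitosis genes was 2.54, and that of all genes tested was 0.02. Without the filter, 20 of the 27 were higher and 1 lower, with the share over all genes in that fit not given here. In such sums, a smaller share of nuclei with a transcript cannot be told apart from less transcript per nucleus; the shares of nuclei are given further on. The share of UMIs from Malat1, an abundant nuclear RNA, also moved with the groups, at 19.8% to 24.0% in the control libraries, 10.3% and 6.74% at day 7 and 16.0% to 17.6% at day 28, and its part in the results was not tested.

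Anln, Diaph3, Prc1 and Ect2 act in cytokinesis, the cleavage of the cell, or in the spindle midzone before it. Anln, which encodes the scaffold anillin of the cleavage furrow, had 1.56, 1.00, 1.33 and 1.89 CPM (a gene's UMIs relative to all UMIs of the sum, scaled by TMM factors) in controls 1 to 4 and 25.9 and 36.5 CPM in day 7 mice 1 and 2. Both day 7 libraries lay far above all controls, with 31.2 CPM ± 7.47 (SD, n = 2) against 1.44 ± 0.373 (SD, n = 4). Its log2 change was 4.48 (SE 0.37, edgeR adjusted p = 3.04e-06). Diaph3, a formin that nucleates actin, had 6.91, 5.02, 5.30 and 14.5 CPM in the controls and 70.1 and 69.2 CPM at day 7, a log2 change of 3.26 (SE 0.33, edgeR adjusted p = 1.41e-05). The control values differed more among themselves than the day 7 values did, and the groups did not overlap. Prc1, which bundles the microtubules of the spindle midzone, rose from 2.01, 1.00, 1.33 and 0 CPM to 13.9 and 19.6 CPM, a log2 change of 3.71 (SE 0.46). Ect2, the exchange factor that switches on RhoA at the furrow, rose from between 7.54 and 9.81 CPM in the controls to 29.9 and 34.2 CPM, a log2 change of 1.89 (SE 0.25).

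Genes of chromosomes and kinetochores rose as well. Mki67 had 3.57, 6.02, 2.36 and 5.03 CPM in the controls and 32.7 and 35.4 CPM at day 7, a log2 change of 3.06 (SE 0.67, edgeR adjusted p = 0.00271). Top2a, which untangles sister chromatids, had 3.34, 4.01, 1.03 and 1.26 CPM in the controls and 21.5 and 25.9 CPM at day 7, a log2 change of 3.26 (SE 0.55). Cenpf, a kinetochore protein, had 3.34, 5.27, 2.21 and 3.14 CPM in the controls and 28.7 and 31.2 CPM at day 7, a log2 change of 3.11 (SE 0.46). None of these 3 had a control library within reach of a day 7 library. Across all 27 mitosis genes, 21 lay higher in both day 7 libraries than in every control and 1 lay lower in both, where 30.6% and 24.1% of all genes with a UMI did so. The 21 include Ccnb1 and Foxm1, which had too few counts to be tested, as had Aurkb. The other called genes ran from a log2 change of 1.18 for Smc4 to 4.84 for Bub1, which had 0, 0.502, 0 and 0 CPM in the controls and 3.68 and 4.45 CPM at day 7. Kif20b, Ccnb2, Tpx2, Cdk1, Bub1b and Aurka were tested and not called, with log2 changes from -0.58 to 2.21.

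**Figure D1:**
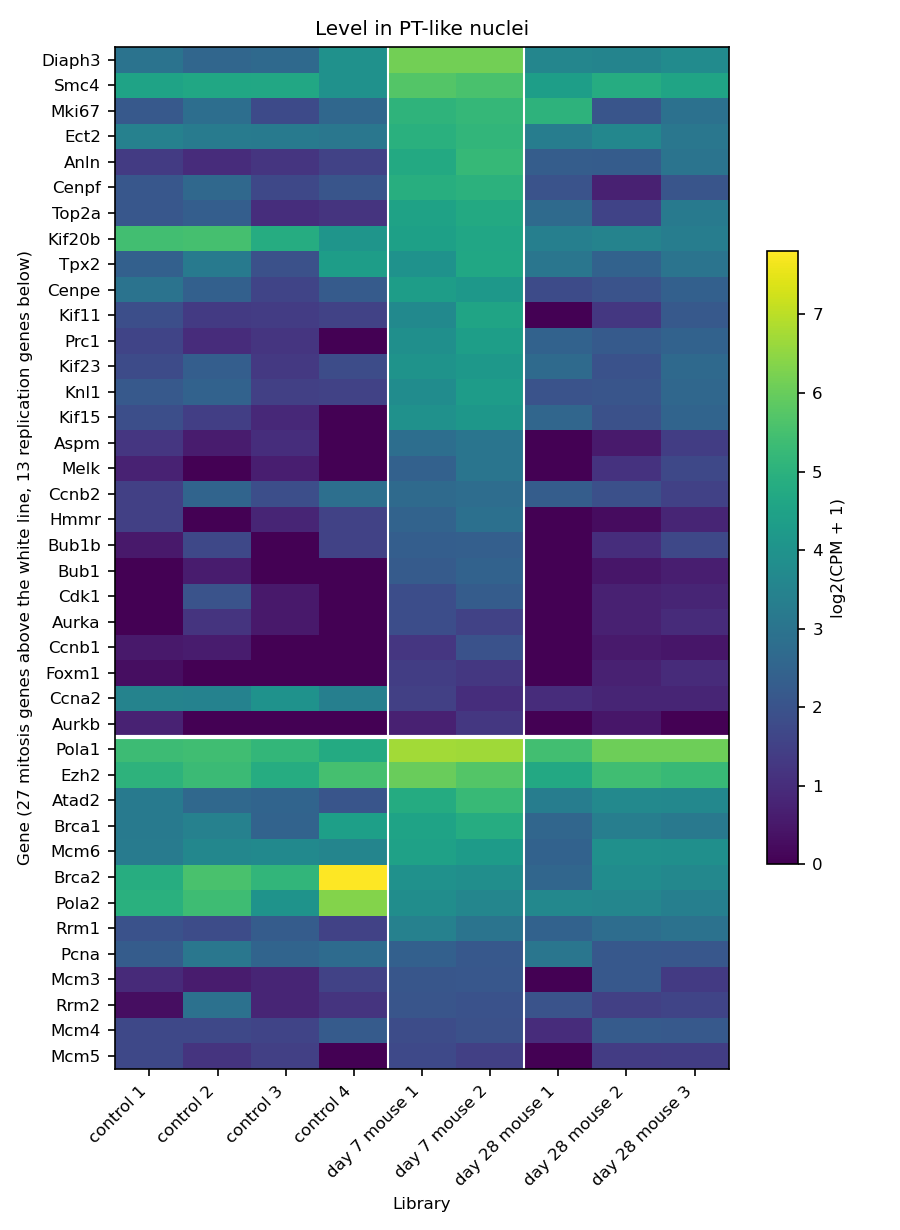
Heat map of the level of the 40 genes (rows, the 27 mitosis genes above the thick white line and the 13 replication genes below it) in the PT-like sum of each of the 9 libraries (columns), with colour giving log2(CPM + 1) from dark at 0 to yellow at the highest level. The 2 day 7 columns are brighter than the 4 control columns for most mitosis genes and for Pola1 and Atad2, and darker for Ccna2, Brca2 and Pola2; the brightest cell is Brca2 in control 4, at 223 CPM.

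Among replication genes, all 13 were tested at day 7, of which 5 were higher than in control and 2 lower, where 26.7% and 24.5% of all genes were, and their median log2 change was 0.73. Atad2, a chromatin ATPase, rose from 8.25, 5.27, 4.71 and 3.14 CPM to 27.1 and 37.1 CPM, a log2 change of 2.53 (SE 0.32, edgeR adjusted p = 6.94e-05). Pola1, the catalytic subunit of polymerase alpha, had 39.9, 41.4, 34.9 and 26.4 CPM in the controls and 105 and 103 CPM at day 7, a log2 change of 1.53 (SE 0.24). Rrm1, the large subunit of ribonucleotide reductase, rose from between 1.89 and 3.83 CPM to 9.85 and 6.99 CPM, a log2 change of 1.52 (SE 0.37). For each of these 3 genes the groups did not overlap. Brca1 rose with a log2 change of 1.33 (SE 0.44), from 8.03, 9.79, 4.56 and 20.1 CPM to 22.0 and 27.6 CPM, and Ezh2, the methyltransferase of Polycomb, with 0.73. For Brca1 the highest control, control 4, came close to the lower day 7 library. The helicase subunit Mcm6 was at 8.47 to 11.9 CPM in the controls and 21.1 and 18.4 CPM at day 7, without overlap, and missed the threshold (log2 change 0.90, SE 0.36, edgeR adjusted p = 0.0515). The clamp Pcna had 3.79, 7.53, 4.71 and 5.66 CPM in the controls and 4.24 and 3.43 CPM at day 7, which overlap (log2 change -0.48, SE 0.45, edgeR adjusted p = 0.386). Mcm3, Mcm4, Mcm5 and Rrm2 were not called either, with log2 changes up to 1.89. Of the 13, 7 lay above every control in both day 7 libraries and 2 below, where 30.6% and 24.1% of all genes with a UMI did so.

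The replication count was small enough to turn on single libraries: without control 1 or control 3 it was 3 higher, without day 7 mouse 1 it was 2 higher and without day 7 mouse 2 it was 3 higher, and without either day 7 mouse 0 were lower. Both day 7 libraries had v3 barcodes and all controls v2 barcodes, and a fit with a term for the barcode set leans on the day 28 libraries. In it 8 mitosis genes were higher and 0 lower, and 1 replication gene (Atad2) was higher and 0 lower. The share of all genes called in that fit is not given here. Changes also moved with gene length: all-gene medians at day 7 ran from -1.05 in the shortest of 5 equal bins of genes by length to 0.48 in the longest, and minus the median of its bin Pcna turned from -0.48 to 0.57 and Pola1 went from 1.53 to 1.06.

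Ccna2, Brca2 and Pola2 were called lower at day 7, against the direction of the other called genes of their groups. Ccna2, the cyclin of S phase and early mitosis, had 10.3, 10.0, 14.7 and 9.43 CPM in the controls and 1.76 and 1.02 CPM at day 7, a log2 change of -2.97 (SE 0.43, edgeR adjusted p = 0.000176). Brca2 had 28.1, 46.4, 34.0 and 223 CPM in the controls and 14.3 and 13.5 CPM at day 7, a log2 change of -2.52 (SE 0.78, edgeR adjusted p = 0.0175). Pola2, the regulatory subunit of polymerase alpha, had 30.3, 40.4, 15.0 and 81.1 CPM in the controls and 13.1 and 10.9 CPM at day 7, a log2 change of -1.74 (SE 0.51, edgeR adjusted p = 0.0137). In all 3 genes every control lay above both day 7 libraries, and for Brca2 and Pola2 control 4, the shallowest library, was the highest. Without control 4 the changes were smaller and still called, at -1.44 for Brca2 (edgeR adjusted p = 0.00719; over its 18 alternatives from 0.00114 to 0.121) and -1.30 for Pola2 (0.0180; from 0.00191 to 0.300), and Kif20b was called lower too.

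The UMIs of these 3 genes also sat in other nuclei. Of the 201 control UMIs of Ccna2 in PT-like nuclei, 2.99% were in nuclei with UMIs of at least 2 other mitosis genes, and of its 30 day 7 UMIs 70.0% were. The same share was 2.46% of 896 control UMIs and 40.4% of 285 day 7 UMIs for Brca2, and 3.22% of 528 and 43.6% of 250 for Pola2. For comparison, 1.49% of all control and 13.2% of all day 7 PT-like nuclei had UMIs of 2 or more mitosis genes. Top2a differed, with 80.0% of its 40 control UMIs and 88.8% of its 472 day 7 UMIs in such nuclei. Control nuclei held up to 18 Pola2 UMIs each, and day 7 nuclei at most 3. Ccna2 (chr3:36564865-36572150, minus strand, mm10) shares 863 bases with Exosc9 on the opposite strand, and Brca2 overlaps Gm42529 and Gm42531, among others. Whether the counting used strand is not stated in the sources used here, so reads of Ccna2 and Brca2 and of their overlapping neighbours cannot be told apart. Pola2 has no overlapping gene in the annotation.

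**Figure D2:**
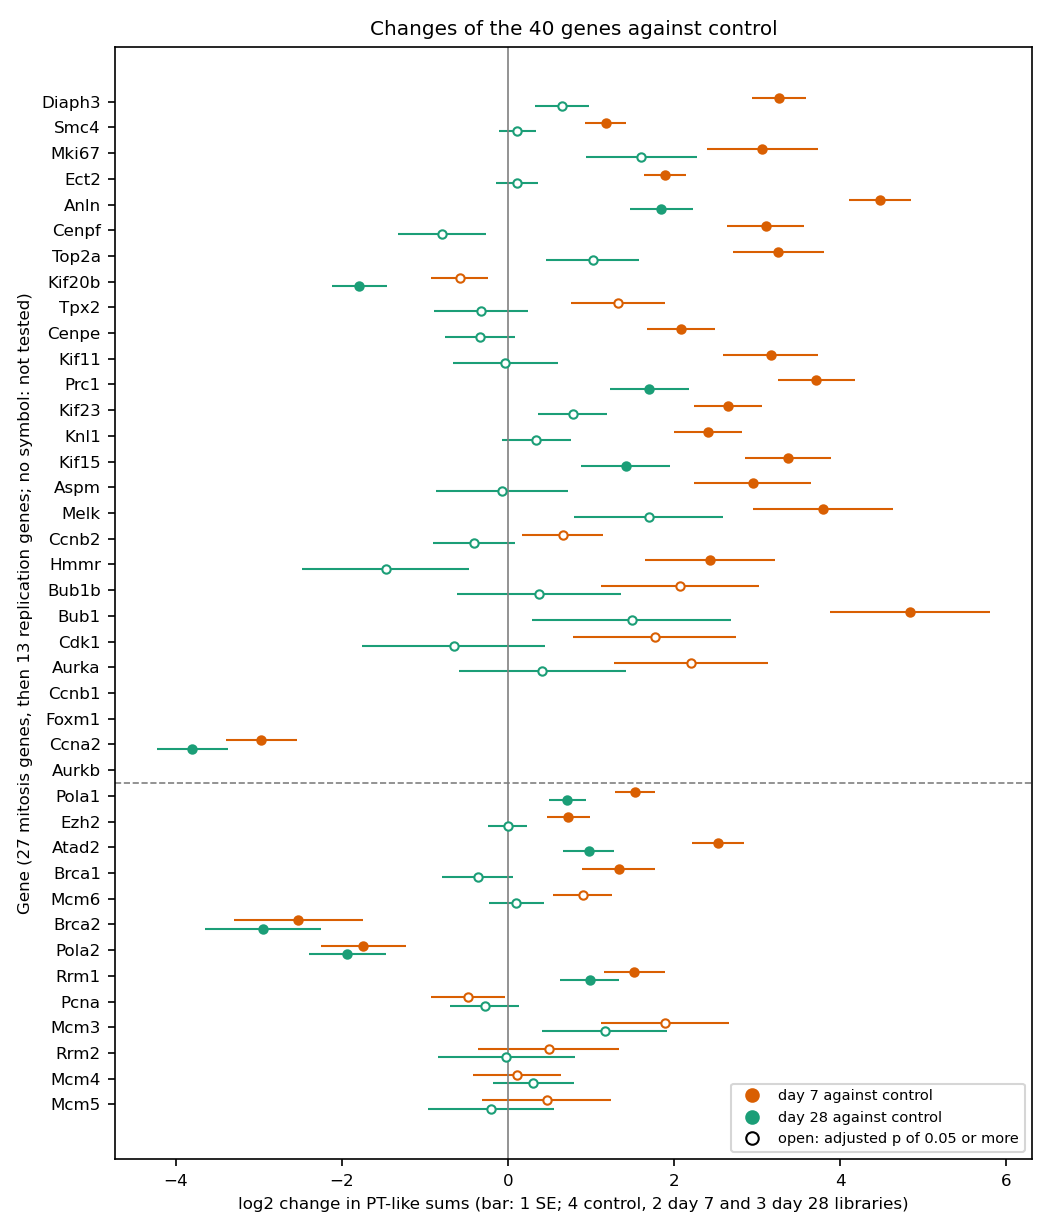
Log2 change (horizontal axis, bars 1 SE) of each tested gene (vertical axis, mitosis genes above the dashed line) in PT-like sums, with orange for day 7 and green for day 28 (each relative to the controls), filled where the adjusted p was under 0.05; rows with no symbol were not tested. Most mitosis genes have a filled orange symbol to the right of 0 and an open green one nearer 0, and Ccna2, Brca2 and Pola2 have both symbols filled and to the left; both comparisons use the same 4 control libraries.

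At day 28 few mitosis genes were called against control. In PT-like sums 3 mitosis genes were higher than in control (Anln, Prc1 and Kif15) and 2 lower (Ccna2 and Kif20b), of 24 tested, while over all genes 25.2% were called higher and 21.1% lower (edgeR quasi-likelihood test, adjusted p under 0.05). The median log2 change of the tested mitosis genes was 0.23, against 0.05 for all genes. Anln had 3.96, 3.85 and 7.10 CPM in day 28 mice 1 to 3, above each control and below each day 7 library, a log2 change of 1.85 against control (SE 0.38, edgeR adjusted p = 0.00196). Prc1 had 4.45, 3.66 and 4.48 CPM and a log2 change of 1.70 (SE 0.47), and the kinesin Kif15 had 4.95, 2.82 and 4.67 CPM, against 2.68, 1.76, 0.883 and 0 CPM in the controls, with a log2 change of 1.42 (SE 0.53, edgeR adjusted p = 0.0459). These 3 were the mitosis genes without overlap above the controls, where 19.5% of all genes lay above and 16.0% below. The 19 tested and uncalled mitosis genes ran from -1.47 to 1.69.

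Kif20b, a kinesin of the midbody, had 42.6, 44.7, 27.5 and 15.7 CPM in the controls, 20.8 and 23.5 CPM at day 7 and 9.40, 10.2 and 8.97 CPM at day 28. The day 28 libraries lay below all others, with a log2 change against control of -1.79 (SE 0.33, edgeR adjusted p = 0.000937). Of its UMIs, 3.44% in controls and 58.9% at day 7 were in nuclei with 2 or more other mitosis genes. Ccna2 itself had 0.989, 0.752 and 0.747 CPM at day 28, a log2 change of -3.80 (SE 0.42).

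Of the 13 replication genes, 3 were higher at day 28 than in control and 2 lower, with a median log2 change of -0.0041. Both counts are below the shares of all genes, 25.2% higher and 21.1% lower. Pola1 had 42.0, 67.4 and 66.1 CPM (log2 change 0.71, SE 0.22), Atad2 had 8.90, 11.7 and 11.6 CPM (0.98, SE 0.31) and Rrm1 had 4.45, 5.92 and 6.72 CPM (0.99, SE 0.36). In all 3 the day 28 libraries lay between the controls and the day 7 libraries. Brca2 stood at 4.95, 12.8 and 11.6 CPM (log2 change -2.95, SE 0.69) and Pola2 at 11.4, 11.1 and 9.34 CPM (-1.93, SE 0.46), below every control. Without control 4 these changes were -1.79 and -1.42, still called (edgeR adjusted p = 0.00151 and 0.00862; over 19 alternatives from 1.69e-05 to 0.0738 and from 0.00027 to 0.164). Mcm6 had 4.45, 14.2 and 13.8 CPM and Pcna 7.42, 3.48 and 3.36 CPM, in both cases with mouse 1 apart from the other pair, and neither was called (edgeR adjusted p = 0.826 and 0.610). Among v2 barcodes, where day 28 is mouse 1 alone and its spread is taken from the controls, 1 mitosis gene was higher (Mki67) and 1 lower (Ccna2), and 0 replication genes were higher or lower. Without day 28 mouse 2, 5 mitosis genes were higher; the 3 higher replication genes became 1 without control 2 and 0 without day 28 mouse 2 or mouse 3.

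The comparison of day 28 with day 7 shares reporter and sort. In PT-like sums 15 of the 27 were lower at day 28 and 0 higher, of 24 tested, where 1.38% of all genes were called lower and 4.40% higher (edgeR quasi-likelihood test, adjusted p under 0.05). At an unadjusted p under 0.05, 19 were lower and 0 higher, and DESeq2 called 16 lower and 0 higher. The median log2 change was -2.04, against -0.03 for all genes. Every mitosis gene, 27 of 27, had all 3 day 28 libraries below both day 7 libraries, as did 8 of the 13 replication genes and 21.6% of all genes with a UMI. Cenpf had 2.97, 0.658 and 3.18 CPM at day 28, a log2 change of -3.90 (SE 0.54, edgeR adjusted p = 0.00185). Diaph3 had 10.9, 10.4 and 12.7 CPM (-2.62, SE 0.35) and Anln fell with -2.63 (SE 0.35). Ect2 had 8.90, 11.2 and 7.47 CPM (-1.78, SE 0.27), which overlaps the controls. Cenpe, the kinesin of kinetochores, had 2.47, 3.01 and 4.30 CPM against 19.1 and 16.8 CPM at day 7 (-2.42, SE 0.44), and Kif11, which pushes the spindle poles apart, had 0, 1.41 and 3.55 CPM against 12.0 and 22.8 CPM (-3.19, SE 0.61). Top2a, with 5.44, 1.97 and 8.22 CPM, fell by 2.24 on the log2 scale (SE 0.56, edgeR adjusted p = 0.0371).

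Among replication genes Atad2 was called lower at day 28 than at day 7 (log2 change -1.55, SE 0.33, edgeR adjusted p = 0.0170), and the other 12 were not called, with log2 changes from -1.70 for Brca1 to 0.20 for Pcna. The median of the 13 was -0.67. The mitosis count depended on single mice, with 7 lower without day 28 mouse 2, 6 without day 7 mouse 1 and 3 without day 7 mouse 2. The replication count was 2 without control 3 or control 4, which enter through the shared spread, and 0 without day 7 mouse 1 or mouse 2. Within v3 barcodes, day 28 mice 2 and 3 against both day 7 mice, 20 mitosis genes and 3 replication genes were lower.

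Mki67 did not follow the other mitosis genes in 1 library. It had 32.2 CPM in day 28 mouse 1, close to the day 7 values, and 3.19 and 6.54 CPM in mice 2 and 3. The 65 PT-like UMIs of Mki67 in mouse 1 came from 65 different nuclei, and 4.62% of them were in nuclei with 2 or more other mitosis genes, against 82.0% of the 687 UMIs at day 7. In that mouse its CPM, here without TMM factors, was 35.7 in the injured state, 37.8 in the uninjured state, 23.2 in thick ascending limb-like nuclei and 34.0 over all nuclei. Over 3 mice Mki67 was not called at day 28 against day 7 (log2 change -1.46, SE 0.69, edgeR adjusted p = 0.244), and without mouse 1 it was lower (-2.86, edgeR adjusted p = 0.00149; over its 19 alternatives from 0.00128 to 0.622). The cause of this level was not tested.

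**Figure D3:**
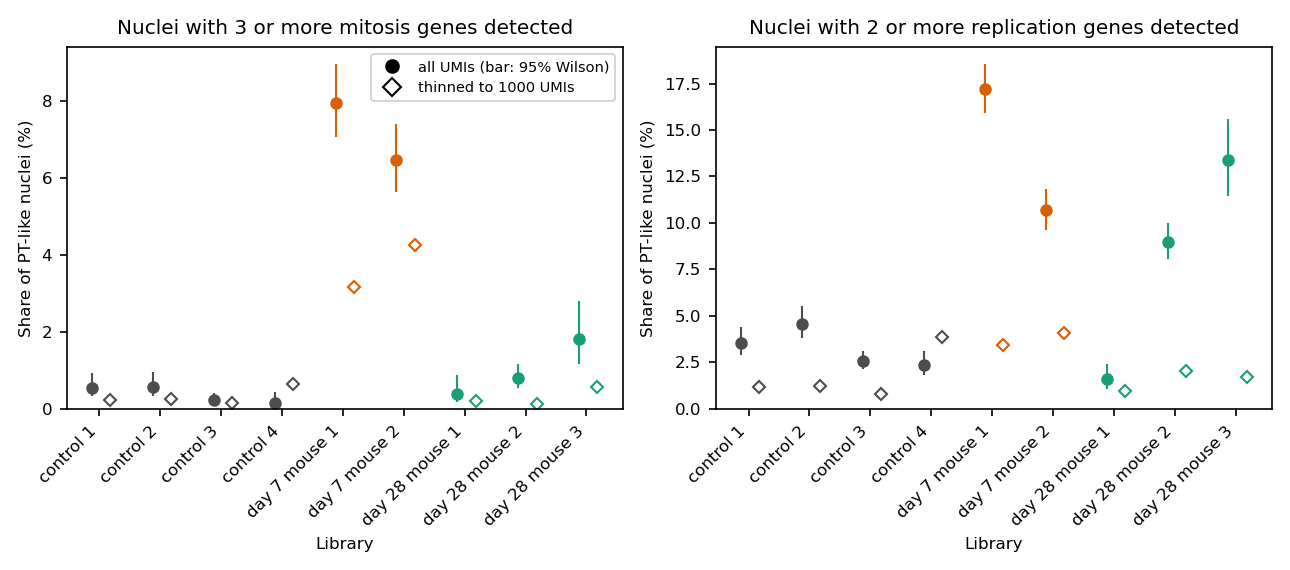
Share of PT-like nuclei with UMIs of 3 or more mitosis genes (left) and of 2 or more replication genes (right) in each library, in percent. Filled circles with Wilson 95% intervals use all UMIs, and open diamonds give the share after thinning each nucleus to 1000 UMIs; both day 7 libraries stand above all others for mitosis genes, at 6.46% and 7.96%, while day 28 mouse 3 reaches the day 7 range for replication genes.

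At the level of nuclei, the day 7 signal came from a minority. UMIs of 3 or more mitosis genes were found in 0.544%, 0.548%, 0.218% and 0.144% of PT-like nuclei of controls 1 to 4, in 7.96% and 6.46% at day 7 and in 0.373%, 0.786% and 1.80% at day 28. The Wilson 95% intervals, which cover counting error only, were 7.06% to 8.97% and 5.63% to 7.40% for the day 7 mice and reached at most 0.956% in a control and 2.80% at day 28. After thinning to 1000 UMIs per nucleus the shares were 0.230%, 0.248%, 0.157% and 0.645%, then 3.17% and 4.25%, then 0.194%, 0.123% and 0.573%. The day 7 mice were thus above every other library at equal depth, and day 28 mice 1 and 3 lay within the control range and mouse 2 below it. The top of that range is control 4, of which only 310 PT-like nuclei had 1000 UMIs or more. Controls 1 to 3 reached at most 0.248%, below day 28 mouse 3 at 0.573%. Thinning left out 2469 of the 10787 control nuclei, most of them in the shallow control 4. Podocyte-like nuclei, from cells that hardly divide, had 0 such nuclei of 117 in controls, 37 at day 7 and 39 at day 28, but 0 of 37 allows a share of up to 8.11%.

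Nuclei with 2 or more replication genes were 3.56%, 4.57%, 2.57% and 2.35% of PT-like nuclei in the controls, 17.2% and 10.7% at day 7 and 1.57%, 8.98% and 13.4% at day 28. These shares moved with depth: day 28 mouse 1 had a median of 1273 UMIs per PT-like nucleus and mouse 3 had 4469. After thinning they were 1.15%, 1.19%, 0.787% and 3.87% in the controls, 3.40% and 4.05% at day 7, and 0.968%, 2.02% and 1.72% at day 28. Control 4 then lay between both day 7 mice, and Brca2 and Pola2, its high genes, are in this count.

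Mitosis and replication transcripts met in the same nuclei. At day 7, 441 PT-like nuclei had 3 or more mitosis genes, with up to 22 of the 27 in a nucleus. They held 73.7% of all mitosis UMIs of the class. In controls 37 such nuclei held 15.0% and at day 28 50 held 27.0%. These nuclei were picked by the same UMIs, so their share of them rises with level and depth by construction. Of the 441, 270 (61.2%) also had 2 or more replication genes, as did 21 of 37 in controls and 35 of 50 at day 28. Conversely, of the 855 day 7 nuclei with 2 or more replication genes 31.6% had 3 or more mitosis genes. It was 6.18% of 340 in controls and 7.63% of 459 at day 28. Over all PT-like nuclei, 7.23% at day 7, 0.343% in controls and 0.877% at day 28 had 3 or more mitosis genes. Such nuclei were also deeper, at day 7 with a median of 3942 UMIs against 2086 in nuclei with no mitosis gene. Summed over the 13 replication genes, the level was 1021 CPM in day 7 nuclei with 3 or more mitosis genes, 255 in those with 1 or 2 and 192 in those with none. The steps in controls were 1618, 167 and 160 CPM, and at day 28 they were 1435, 200 and 161 CPM. The genes did not share this step evenly: at day 7 Atad2 had 158 CPM in nuclei with 3 or more mitosis genes and 13.8 in those with none, and Brca2 had 43.7 and 11.3.

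**Figure D4:**
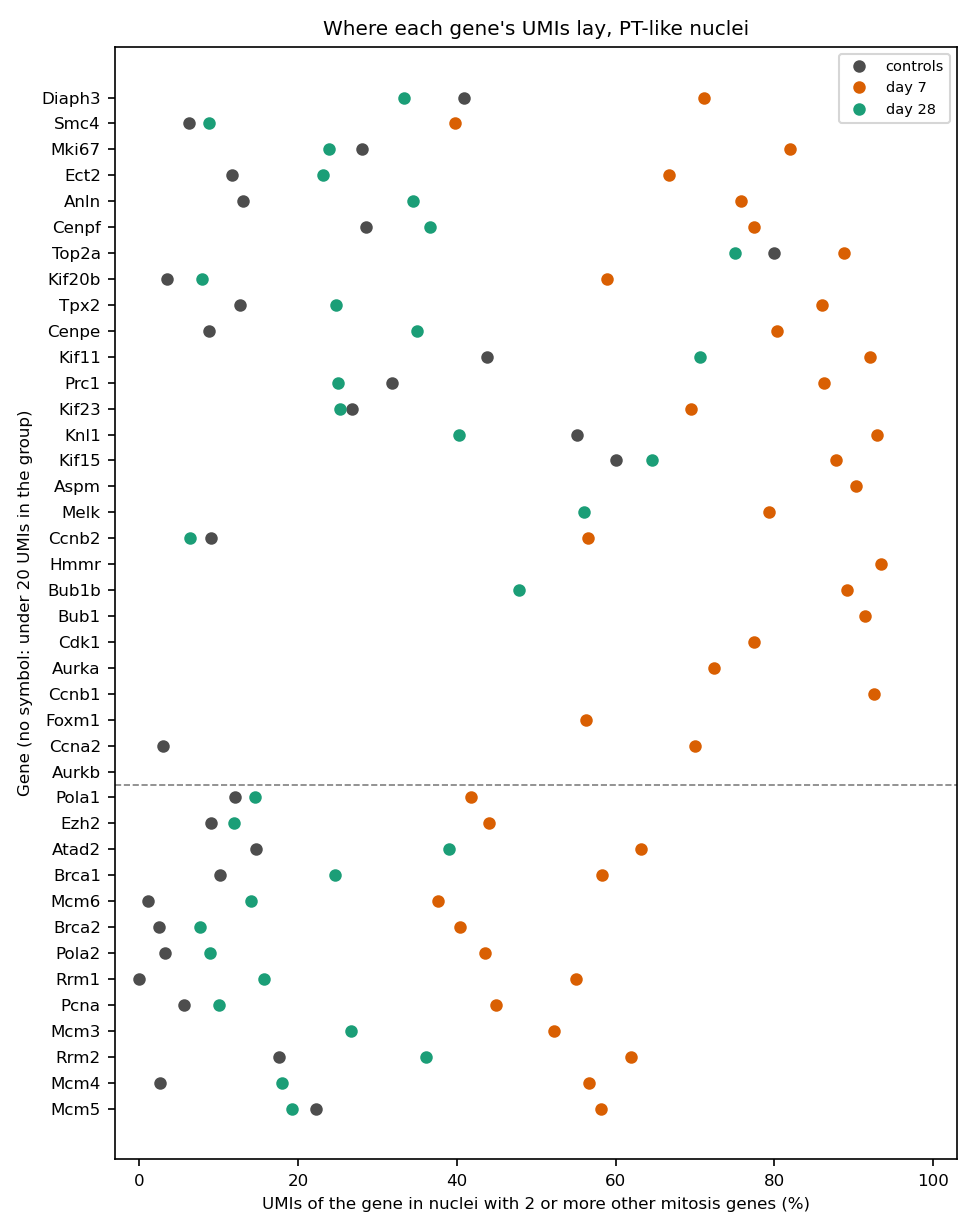
Percent of a gene's PT-like UMIs that were in nuclei with UMIs of 2 or more other mitosis genes (horizontal axis), for the 40 genes (vertical axis) in controls (grey), at day 7 (orange) and at day 28 (green), drawn where the group had 20 UMIs or more. At day 7 the share was 82.0% for Mki67, 88.8% for Top2a and 41.8% for Pola1, and in controls it was 2.99% for Ccna2 and 2.46% for Brca2.

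Within the IRI libraries, the injured and the uninjured state were compared. The test paired both sums of each of the 5 libraries. Few members passed the filter on low counts, and the uninjured state held 443 nuclei at day 7 and 613 at day 28. Clusters 17 and 34 held 326 and 105 of these at day 7, 266 and 44 at day 28, and 1 control nucleus each. The uninjured state of day 7 thus sat mostly in clusters nearly absent from controls. Of 27 mitosis genes 5 were tested and 1, Diaph3, was higher; of 13 replication genes 7 were tested and 4 were higher; and 0 were lower (edgeR quasi-likelihood test, adjusted p under 0.05), where 21.5% of all genes were called higher and 22.4% lower; the count for mitosis genes is near that share. No member was lower at an unadjusted p under 0.05 either, while 4 mitosis and 4 replication genes were higher. Diaph3 had 16.7, 11.5 and 15.3 CPM in the injured state of day 28 mice 1 to 3 and 72.3 and 73.6 CPM in that of the day 7 mice, against 0, 0, 1.79, 4.86 and 15.1 CPM in the uninjured state of the same libraries. It was higher in the injured state in 5 of 5 libraries, with a log2 change of 3.25 (SE 0.35, edgeR adjusted p = 8.04e-06). In the uninjured state Diaph3 had 0, 0, 1, 4 and 7 UMIs in these libraries. It thus passed the filter through the injured state, where it is high.

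The 4 replication genes called were Pola1, Ezh2, Brca1 and Atad2. Pola1 had 53.8, 71.8, 74.2, 107 and 108 CPM in the injured state and 34.3, 47.9, 53.8, 36.4 and 40.9 CPM in the uninjured state, again for the day 28 mice first (log2 change 0.96, SE 0.18). Ezh2 rose by 0.81 (SE 0.17) and Brca1 by 1.21 (SE 0.29), both higher in 5 of 5 libraries. Atad2 rose by 1.47 (SE 0.41), with day 28 mouse 2 going the other way at 12.1 against 16.6 CPM. In the uninjured state Brca1 had 2, 3, 2, 6 and 6 UMIs and Atad2 1, 9, 1, 4 and 6. Both changes thus rest on few uninjured-state counts. Mki67 was not called (log2 change 1.06, SE 0.46, edgeR adjusted p = 0.0787), nor was Mcm6 (0.27, SE 0.32), and Top2a and Pcna were not tested. Without the filter on low counts 17 mitosis genes were higher. Without day 28 mouse 1, 10 mitosis genes were higher, without mouse 3, 2 were, and without day 7 mouse 1, 2 replication genes were. Shares over all genes in these fits are not given here. The share of nuclei with 3 or more mitosis genes was 8.56% and 6.83% in the injured state of the day 7 mice and 0.837% and 1.47% in the uninjured state, the latter from 5 of 443 nuclei.

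Within the injured state alone, day 28 was compared with day 7. Of 25 tested mitosis genes 12 were lower and 0 higher, and of the 13 replication genes 2 were lower, Atad2 and Brca1, and 0 higher (edgeR quasi-likelihood test, adjusted p under 0.05), where 1.08% of all genes were called lower and 3.36% higher. At an unadjusted p under 0.05, 22 mitosis and 4 replication genes were lower and 0 higher. Diaph3 fell by 2.42 on the log2 scale (SE 0.22, edgeR adjusted p = 0.00982), Cenpf by 3.85 (SE 0.58), Anln by 2.55 (SE 0.38), Cenpe by 2.45 (SE 0.34), Prc1 by 1.88 (SE 0.34) and Ect2 by 1.79 (SE 0.27). Brca1 fell by 1.59 (SE 0.29) and Atad2 by 1.42 (SE 0.25). Different clusters hold the injured state on the 2 days: clusters 2, 4 and 11 had 1596, 1309 and 924 nuclei at day 7 and 30, 207 and 37 at day 28, and clusters 6, 8 and 10 had 55, 45 and 20 at day 7 and 1294, 1084 and 1038 at day 28. Mki67 (log2 change -1.54), Top2a (-2.03), Mcm6 (-0.74) and Pcna (0.38) were not called. The mitosis count ranged widely with the libraries kept, at 19 without day 28 mouse 1, which is also the comparison within v3 barcodes, 3 and 5 without mouse 2 or 3, and 1 and 0 without day 7 mouse 1 or 2, which leaves 1 day 7 library; the replication count was 0 without day 28 mouse 2 or 3 or either day 7 mouse.

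IRI nuclei were also divided by 2 injury transcripts. PT-like IRI nuclei with a UMI of Vcam1, an adhesion molecule that marks tubule cells which fail to repair, and none of Havcr1, the gene of kidney injury molecule KIM-1, were set against nuclei with the reverse. Of 8 tested mitosis genes 0 were called, at an unadjusted p under 0.05 also 0, and of 6 tested replication genes Atad2 was lower in the Vcam1-only nuclei (log2 change -1.22, SE 0.28, edgeR adjusted p = 0.00850), where 1.77% of all genes were called higher and 1.73% lower. Atad2 had 14.9, 5.72, 10.7, 11.3 and 15.9 CPM in Vcam1-only nuclei and 9.20, 20.6, 18.9, 25.0 and 39.3 CPM in Havcr1-only nuclei of day 28 mice 1 to 3 and day 7 mice 1 and 2, lower in 4 of 5 libraries. Mki67 (log2 change -0.20, SE 0.30), Top2a (-0.16, SE 0.33) and Mcm6 (-0.37, SE 0.29) were not called, and Pcna was not tested. Cenpf was not among the 8 tested, and without any 1 day 28 mouse it was called higher in Vcam1-only nuclei. Over the 5 alternatives that tested it, its log2 change ran from 0.99 to 1.14 (edgeR adjusted p from 0.0186 to 0.0391). In the same order of libraries it had 8.95, 0.477, 6.20, 56.6 and 57.2 CPM in Vcam1-only nuclei. Havcr1-only nuclei had 0, 0.503, 2.10, 23.7 and 30.7 CPM, so Cenpf was higher in Vcam1-only nuclei in 4 of 5 libraries. Without day 28 mouse 2 Atad2 was not tested and 0 replication genes were called. The shares of nuclei with 3 or more mitosis genes at day 7 were 7.31% of Havcr1-only, 5.69% of Vcam1-only, 10.0% of nuclei with both and 4.85% of nuclei with neither, whose median UMIs were 2537, 1931, 3853 and 1500.5. After thinning they were 3.83%, 4.02%, 4.24% and 2.66%.

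Thick ascending limb-like (TAL-like) nuclei, from the salt-reabsorbing segment, were fewer. Their clusters differed by group, with 523 and 300 of the 860 control nuclei in clusters 14 and 27 and 335 of the 398 day 7 nuclei in cluster 19. In TAL-like sums 17 of 27 mitosis genes and 4 of 13 replication genes lay above every control in both day 7 libraries, where 16.9% of all genes did; at day 28 it was 0 and 0, where 7.27% did. Anln had 1.35, 5.17, 0 and 0 CPM in the controls, 33.9 and 18.0 CPM at day 7 and 0, 1.94 and 2.63 CPM at day 28. Diaph3 had 4.06, 15.5, 14.0 and 8.01 CPM, then 72.4 and 55.5 CPM, then 11.3, 1.94 and 7.90 CPM. In both genes the day 7 libraries stood apart from all others. The share of TAL-like nuclei with 3 or more mitosis genes was 0.349% of 860 control nuclei, 6.53% of 398 at day 7 (Wilson 95% interval 4.50% to 9.40%; 7.46% in cluster 19 and 1.61% in cluster 14) and 0.242% of 414 at day 28. The mitosis genes summed to 110, 99.6, 75.0 and 102 CPM in the controls, 428 and 337 CPM at day 7 and 98.8, 68.9 and 121 CPM at day 28.

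The planned test averaged day 7 and day 28 against control, and it passed only 3 mitosis and 3 replication genes through the filter. It called 0 mitosis genes, 0 also at an unadjusted p under 0.05, and 1 replication gene, Brca2, lower (log2 change -1.63, SE 0.58, edgeR adjusted p = 0.0406), where 12.1% of all genes were called higher and 17.7% lower. Brca2 had 17.6, 41.4, 21.0 and 104 CPM in the TAL-like controls, the highest again in control 4, and 21.5, 12.0, 11.3, 1.94 and 13.2 CPM in the IRI libraries. It was tested and not called without day 28 mouse 2 or day 7 mouse 2, and it was not tested without control 2 or control 4. The IRI effect in PT-like sums minus that in TAL-like sums was called for 0 of 15 tested mitosis and 0 of 8 tested replication genes, where 4.10% of all genes were called higher and 2.53% lower. At an unadjusted p under 0.05 it was 0 mitosis genes and 2 replication genes, the latter with a negative difference. A negative difference can be a smaller rise or a larger fall in PT-like nuclei. Without day 28 mouse 2, 1 replication gene was called. The difference was 1.31 for Mki67 (SE 0.74) and -0.91 for Mcm6 (SE 0.61), so its errors were too wide to show that both tubule types responded alike. For Top2a it was 0.01, and it ran from -0.54 to 0.41 over 10 alternatives. An SE is not given for Top2a because its derivation is unreliable so near 0.

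**Figure D5:**
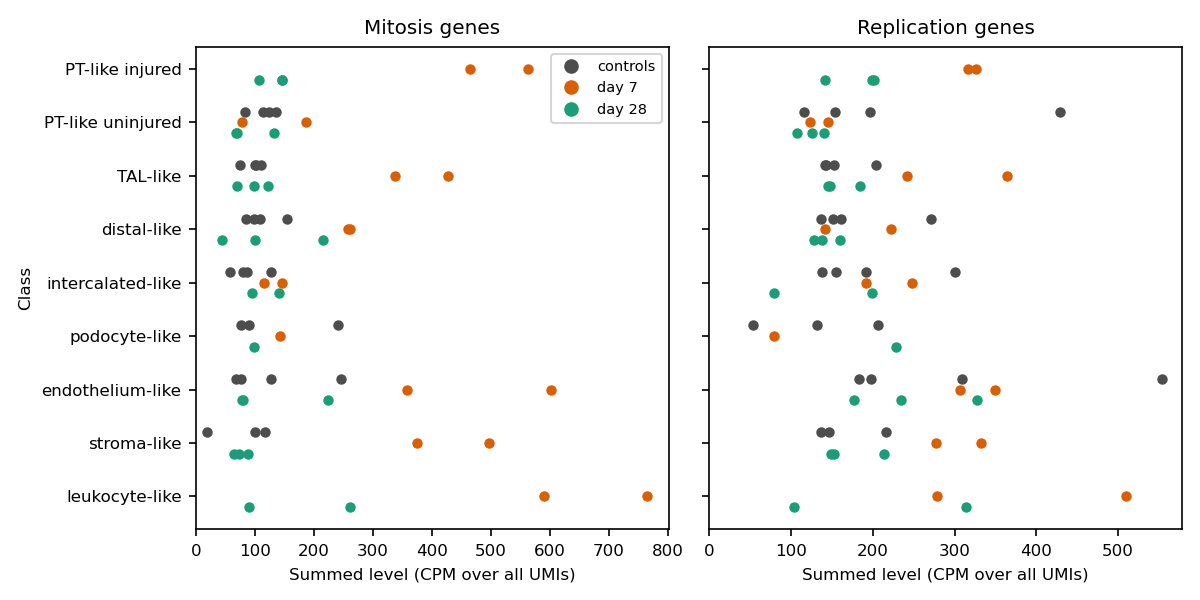
Summed level of the 27 mitosis genes (left) and of the 13 replication genes (right) on the horizontal axes, in CPM of all UMIs of the class without TMM factors, by class of nuclei, with 1 point per library that had 20 or more nuclei of the class (controls grey, day 7 orange, day 28 green). In the mitosis panel the day 7 points of injured-state PT-like nuclei (464 and 564 CPM) lie to the right of the day 28 points. No control had 20 such nuclei. The day 7 points also lie to the right of all drawn others in TAL-like (428 and 337 CPM), distal-like, endothelium-like, stroma-like and leukocyte-like nuclei. In uninjured-state PT-like nuclei 1 day 7 point, at 78.5 CPM, lies below all controls and the other, at 185 CPM, above them. These day 7 nuclei sat mostly in clusters 17 and 34, with 1 control nucleus each.

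Of all 515 day 7 nuclei with 3 or more mitosis genes, 436 (84.7%) were PT-like of the injured state, and 26 TAL-like, 15 endothelium-like, 10 leukocyte-like, 9 stroma-like, 6 distal-like and 5 PT-like of the uninjured state made up most of the rest. As a share of their own class these were 7.71%, 6.53%, 5.64%, 7.58%, 5.70%, 5.50% and 1.13%. In controls such nuclei were 0.581% of 172 endothelium-like, 0 of 21 leukocyte-like and 0 of 89 stroma-like nuclei, where 0 of 21 allows up to 14.3% and 0 of 89 up to 3.37%. Leukocytes and stroma can divide after injury too, and their markers were read in the PT-like sums. The 8 leukocyte markers summed to 17.5 to 49.7 CPM in the controls, 42.8 to 45.4 CPM at day 7 and 39.7 to 75.2 CPM at day 28, and the 8 stroma markers to 1.26 to 9.53, 6.74 to 9.77 and 4.86 to 6.93 CPM, with Postn at 0 in controls and at day 7. The 7 endothelium markers summed to 27.4 to 109, 37.9 to 44.2 and 18.6 to 33.1 CPM. At day 7, of 5 leukocyte markers tested 1 was higher than in control and 0 lower. Of 3 stroma markers tested 1 was higher and 1 lower, and of 4 endothelium markers tested 1 was higher and 2 lower. Over all genes tested, 26.7% were higher and 24.5% lower. The part of these cell types in the results was not tested.

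Other genes of the same processes, also listed with earlier results of these data known, were read in the same fits. Of 68 further mitosis genes 54 were tested at day 7, of which 35 were higher than in control and 4 lower, where 26.7% and 24.5% of all genes were; the lowest adjusted p values were those of the kinase Pbk, which fell (log2 change -5.18, edgeR adjusted p = 0.000207), and of the spindle gene Ckap2, which rose (3.23, edgeR adjusted p = 0.000391). Of 50 further replication genes 48 were tested, with 17 higher and 3 lower, led by the polymerase delta subunit Pold3 (1.76) and Dbf4 (3.02), the activator of the kinase Cdc7. At day 28 against control, where 25.2% of all genes were called higher and 21.1% lower, it was 8 higher and 10 lower of 54 for mitosis, both below those shares, led by Pbk (-4.30) and the condensin subunit Ncapg2 (2.04), and 14 higher and 2 lower of 48 for replication, led by the origin binding Orc1 (2.42) and Pold3 (1.09). At day 28 against day 7, 12 further mitosis genes were lower, led by Ckap2 (-3.06) and the kinetochore gene Ndc80 (-3.46), and 0 higher, where 1.38% of all genes were lower and 4.40% higher, with 0 replication genes called in either direction.

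Regulators of G1, the phase in which cells decide to replicate, were read as well. Of 22 such genes 18 were tested, and at day 7 the kinase Cdk6 (log2 change 2.59), the pocket protein Rbl1 (2.21), the cyclins Ccnd3 (1.51) and Ccnd2 (3.82) and the factors E2f1 (2.67) and E2f3 (1.04) were higher than in control, and Cdk4 (-1.47) and the inhibitor Cdkn2d (-2.10) lower. These are 6 and 2 of 18, where 26.7% of all genes were called higher and 24.5% lower. At day 28 Cdk6 (2.27), Ccnd3 (1.98), Rbl1 (1.52), E2f1 (1.72), Ccnd2 (2.46) and Myc (1.39) were higher than in control and Ccnd1 (-0.72) lower, 6 and 1 of 18, where 25.2% and 21.1% of all genes were. Neither count of higher genes lies far from the share over all genes. Between day 7 and day 28, E2f3 (-0.98) was the sole G1 gene called, and it was lower at day 28. Cdk6, Ccnd3, Rbl1, E2f1 and Ccnd2 were called higher than control at both days. Both comparisons with control use the same 4 control libraries.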

How the data were processed

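Single-nucleus RNA from the kidneys of 9 mice was counted by the authors with Cell Ranger, STAR and Seurat against mm10, per the submitters' processing notes; their versions and any use of strand in counting are not stated in the sources used here. The deposited values are raw counts, whole UMI numbers per gene and nucleus in 2 tables, and a deposited metadata table of other annotations names each nucleus's library. Every gene listed had UMIs in at least 3 nuclei of its table, and a gene missing from a table counted as 0. Library totals were 1833617 to 14641038 UMIs. No column of per-sample values was left unused. Per the labels' protocols, gates of the sorter excluded doublets, and no doublet caller was run. Library kits were read from the barcodes.

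Nuclei were clustered with scanpy 1.11.5 (2000 variable genes without 172 cell cycle genes, 30 components, 20 neighbours, Leiden resolution 2) and named from marker lists at a score of at least 0.5. Counts were summed per library and class and tested with edgeR 4.0.16 in R 4.3.3 (TMM, filterByExpr, quasi-likelihood, Benjamini-Hochberg over all genes tested, threshold 0.05). Each SE was derived as the absolute log2 change over the square root of the F statistic, which is unreliable for changes near 0. The edgeR fit recovered known changes when tested on simulated data. These had the same dispersion for every gene and changes only in genes well above 0, so they do not cover members near 0. A state sum needed 50 nuclei. DESeq2 1.42.0, other filters, classes, barcode terms and left-out libraries were alternatives; comparisons within a barcode set were added after seeing the data. Named members were, per comparison, the 6 of each group with the lowest adjusted p past the threshold, those against their group's direction, and Mki67, Top2a, Pcna and Mcm6; of the other mitosis and replication lists the 2 with the lowest adjusted p were named, and of the G1 list those past the threshold. Members and lists were chosen with earlier results of these data known. Replicate numbers did not pair the samples: same-numbered libraries had correlations of -0.215 to -0.026.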

Additional observations from a re-analysis of the deposited data

Results flagged for a closer look

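In PT-like sums, Brca2 in control 4, at 223 CPM, lay apart from the other controls, at 28.1 to 46.4 CPM, beyond Dixon's 95% limit for 4 samples. The Brca2 level of that library was 207 CPM over all its nuclei and 102 CPM in TAL-like nuclei, both without TMM factors.

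Ccna2 in control 3, at 14.7 CPM, lay apart from the other controls, at 9.43 to 10.3 CPM, by the same limit. These were 2 of 22 items tested in this way, and chance puts about 1 in 20 past the limit.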

How the results depend on the processing

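No result changed its direction past the threshold under any alternative; of 1035 values of named genes under alternatives, 902 kept their side of the threshold, 102 lost a call, 21 gained one and 10, from the subtraction of gene length medians, moved by more than their error. The causes were not tested.

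At day 7 against control, the barcode term gave 8 mitosis genes higher and 0 lower, and 1 replication gene higher and 0 lower. Nuclei of at least 1000 UMIs gave 2 mitosis genes lower. For the alternatives listed here the share of all genes called is not given, so these counts cannot be set against the shares of the main fits. At day 28 against control, mitosis genes higher were 1 over all nuclei of a library, 1 with the barcode term and 1 within v2 barcodes, where 1 was lower. Replication genes higher were 0 with the barcode term and 0 within v2 barcodes, and lower 1 with the term and 0 within v2. At day 28 against day 7, all nuclei of a library gave 9 mitosis genes lower. Replication genes lower were 2 without the filter, 2 from nuclei of at least 1000 UMIs, 3 by DESeq2's Wald test and 3 within v3 barcodes. Injured against uninjured state gave 17 mitosis genes higher without the filter and 2 from nuclei of at least 1000 UMIs, and the injured state at day 28 against day 7 gave 19 lower within v3 barcodes. Vcam1-only against Havcr1-only nuclei called 1 mitosis gene, Cenpf, higher without the filter and from nuclei of at least 1000 UMIs. TAL-like sums called 1 mitosis gene without the filter.

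With the replicate number as a block, 18 mitosis genes were higher and 2 lower at day 7 against control, 0 replication genes higher at day 28 against control, and 5 mitosis and 0 replication genes lower at day 28 against day 7; the numbers do not pair the mice, with same-number correlations from -0.215 to -0.026.

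Leaving out 1 library at a time gave 16 to 20 mitosis genes higher and 1 to 2 lower at day 7, and 2 to 7 replication genes higher and 0 to 2 lower. At day 28 against control it gave 2 to 5 mitosis genes higher and 0 to 4 replication genes higher. At day 28 against day 7, 3 to 16 mitosis and 0 to 2 replication genes were lower, and in the injured state 0 to 19 and 0 to 3. Injured against uninjured gave 1 to 10 mitosis and 2 to 4 replication genes higher, Vcam1-only against Havcr1-only 0 to 1 and 0 to 1, TAL-like sums 0 to 1 replication genes lower, and the PT minus TAL difference 0 to 1.

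The mean share of PT-like nuclei with 3 or more mitosis genes was 0.364% in controls, 7.21% at day 7 and 0.988% at day 28. With 1 gene fewer it was 1.55%, 13.1% and 3.72%, and at day 7 it was 5.02% with 1 gene more and 3.71% after thinning. For 2 or more replication genes the means were 3.26%, 13.9% and 7.98%, after thinning 1.75%, 3.72% and 1.57%, with 1 gene fewer 23.2%, 41.1% and 32.5%, and with 1 more 0.546% in controls and 6.25% at day 7. Day 7 had 2 libraries, control 4 was shallow, and uninjured-state and TAL-like nuclei were few in the IRI libraries; their part in the counts of calls was not tested.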
